A study of Mus musculus with 12 samples.

Results

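The phagocyte NADPH oxidase subunits described here are the products of 5 genes, Cybb, Cyba, Ncf1, Ncf4 and Rac2. Their rows were found by NCBI Gene ID in a table of normalized expression for 9374 genes, and all 5 were present. Expression was measured by RNA sequencing in neutrophils taken from the blood of female mice. The 4 groups, of 3 libraries each, were KO-LPS and KO-Saline (genotype Hmgb1ΔMye, LPS or saline) and WT-LPS and WT-Saline (wild type, LPS or saline). LPS, a bacterial outer membrane lipid that activates Toll-like receptor 4, was given to the mice at 0.5 mg/kg, and cells were collected 16 hours later. The name ΔMye denotes a deletion of Hmgb1, a chromatin protein, in myeloid cells; no Cre driver or mouse age is stated. Whether each library came from its own mouse is not stated, so the p-values cover the spread between libraries, which could be technical.

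The libraries held between 399702 and 526757 reads in the table, which is shallow. Levels are in CPM, which relates reads to the scaled total of the library. With 3 reads as the limit for a gene with 0 reads, the detection limit per library ran from 5.575 to 8.003 CPM, and such limits and intervals cover counting error only. Hmgb1, the targeted gene, had 6, 30 and 16 reads in KO-LPS, 14, 10 and 25 in KO-Saline, 14, 15 and 34 in WT-LPS and 8, 17 and 12 in WT-Saline. The Hmgb1 reads thus did not separate the genotypes. Such reads can come from undeleted exons and so do not test the genotype labels, and the libraries are called KO-labelled. All 14 mature neutrophil markers searched for were in the table, among them the calprotectin gene S100a9, at 6027.7 ± 458 CPM in WT-LPS and 3954 ± 1062 CPM in WT-Saline, and the G-CSF receptor gene Csf3r, at 1772 ± 377 CPM in WT-LPS and 5359 ± 396 CPM in WT-Saline (SD, n = 3 each). One library stood apart: KO-LPS replicate 1 had 867 CPM of the granule gene Lcn2, close to the KO-Saline range of 451 to 667 CPM, while KO-LPS replicates 2 and 3 had 7236 and 7569 CPM. Tests of the LPS response and of the interaction are therefore given with and without it, while levels in KO-LPS include it. That replicate was singled out by its low level of a gene that rose with LPS. The choice was thus made on the outcome, and p-values without that replicate do not allow for it. The strand setting of the counting is not given in the sources used here. Long non-coding RNAs that share exon bases with an opposite-strand coding gene outnumbered it in reads in 167 of 230 cases, or 72.6% (exact binomial 95% interval from 66.4% to 78.3%). If reads were assigned to the wrong strand, every value below would be in doubt.

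The phagocyte oxidase moves electrons from NADPH across the phagosome or plasma membrane to oxygen, which makes superoxide for killing microbes. Its membrane core is a heterodimer of the catalytic subunit gp91phox (Cybb) and p22phox (Cyba). In resting cells regulators such as p47phox (Ncf1) and p40phox (Ncf4) wait in the cytosol, and they join the core together with a Rac GTPase (Rac2 in neutrophils) when the cell is activated. In humans, loss of the core or cytosolic phox subunits causes chronic granulomatous disease, in which phagocytes fail to kill many bacteria and fungi.

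RefSeq promoters (build GRCm38.p6) were matched by Gene ID for 3 of the 5 genes, Cybb, Cyba and Ncf1. Those of Ncf4 and Rac2 are not shown. The 250 bases before the RefSeq start are printed 5′ to 3′ on the gene's own strand for these 3 genes because only they were matched. Higher levels in WT-LPS than in WT-Saline libraries were seen for all 5 genes. Capitals mark matches to 6 patterns of letters, searched on both strands. These were GAGGAA (the core of PU.1-type ETS sites), CCAAT and the core of interferon-stimulated response elements (GAAA repeated after any pair of bases). The others were TGANTCA (AP-1, here loosened to any middle base), TTGCNNAA (C/EBP-type) and GGGCGG (GC box). The windows are chrX:9469325-9469574 for Cybb, chr8:122432941-122433190 for Cyba and chr5:134229626-134229875 for Ncf1, all on the minus strand. The Cybb window lies inside the GENCODE M21 span of Cybb (9435252 to 9487771), whose 5′ end is upstream of the RefSeq start. Those of Cyba and Ncf1 lie just outside their spans.
Cybb: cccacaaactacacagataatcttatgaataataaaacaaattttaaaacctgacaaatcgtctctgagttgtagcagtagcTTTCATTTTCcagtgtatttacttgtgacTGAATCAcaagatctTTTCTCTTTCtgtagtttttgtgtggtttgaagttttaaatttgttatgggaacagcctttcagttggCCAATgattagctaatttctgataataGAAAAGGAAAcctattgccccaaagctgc
Cyba: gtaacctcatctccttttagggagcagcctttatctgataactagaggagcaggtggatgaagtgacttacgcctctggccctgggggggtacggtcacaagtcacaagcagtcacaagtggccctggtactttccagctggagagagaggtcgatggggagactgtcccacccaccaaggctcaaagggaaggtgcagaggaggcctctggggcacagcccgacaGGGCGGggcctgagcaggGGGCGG
Ncf1: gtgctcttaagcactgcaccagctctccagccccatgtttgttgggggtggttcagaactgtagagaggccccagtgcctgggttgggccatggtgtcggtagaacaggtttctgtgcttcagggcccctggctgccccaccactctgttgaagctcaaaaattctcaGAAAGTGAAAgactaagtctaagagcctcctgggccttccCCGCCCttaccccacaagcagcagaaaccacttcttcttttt
The Cybb window had 34.0% G and C. It held 3 matches of the interferon element core, at bases 168 to 159, 124 to 115 and 29 to 20 before the start. It also held a TGANTCA match at 139 to 133, with the letters TGAATCA, and a CCAAT at 56 to 52. No match overlapped another. The Ncf1 window (54.4% G and C) held 1 match of the interferon element core at 82 to 73 and a GC box on the other strand at 42 to 37. The Cyba window (60% G and C) held 2 GC boxes, at 24 to 19 and at 6 to 1. The interferon element core occurred in 3.0% of 32851 RefSeq windows of the same length, TGANTCA in 6.7%, GGGCGG in 32.7%, CCAAT in 33.8%, GAGGAA in 23.3% and TTGCNNAA in 9.6%. The last pair of patterns was in none of the 3 windows. The shares count windows with at least 1 match, and the windows were not matched for G and C content. The matches in the 3 windows describe letters, not bound sites.

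LPS was associated with higher transcript levels of most oxidase subunits in WT libraries. With limma, fitted over all 9374 genes and all 12 libraries, 4 of the 5 subunit genes rose at a Benjamini-Hochberg adjusted p under 0.05, and none fell. Without the mean-variance trend in limma only Ncf4 was called (adjusted p = 0.0279, against 0.058 for Cybb, 0.0788 for Cyba and 0.0814 for Ncf1). Over all genes, 6.72% were called higher and 4.96% lower in this comparison. All 5 genes had WT-LPS libraries that lay wholly above the WT-Saline libraries, a pattern that 16.5% of all genes showed. The median log2 fold change was 1.41 over the 5 genes and 0.07 over all genes. The mice received the LPS and the RNA came from whole samples, so more cells of a type and more RNA per cell cannot be told apart.

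**Figure D1:**
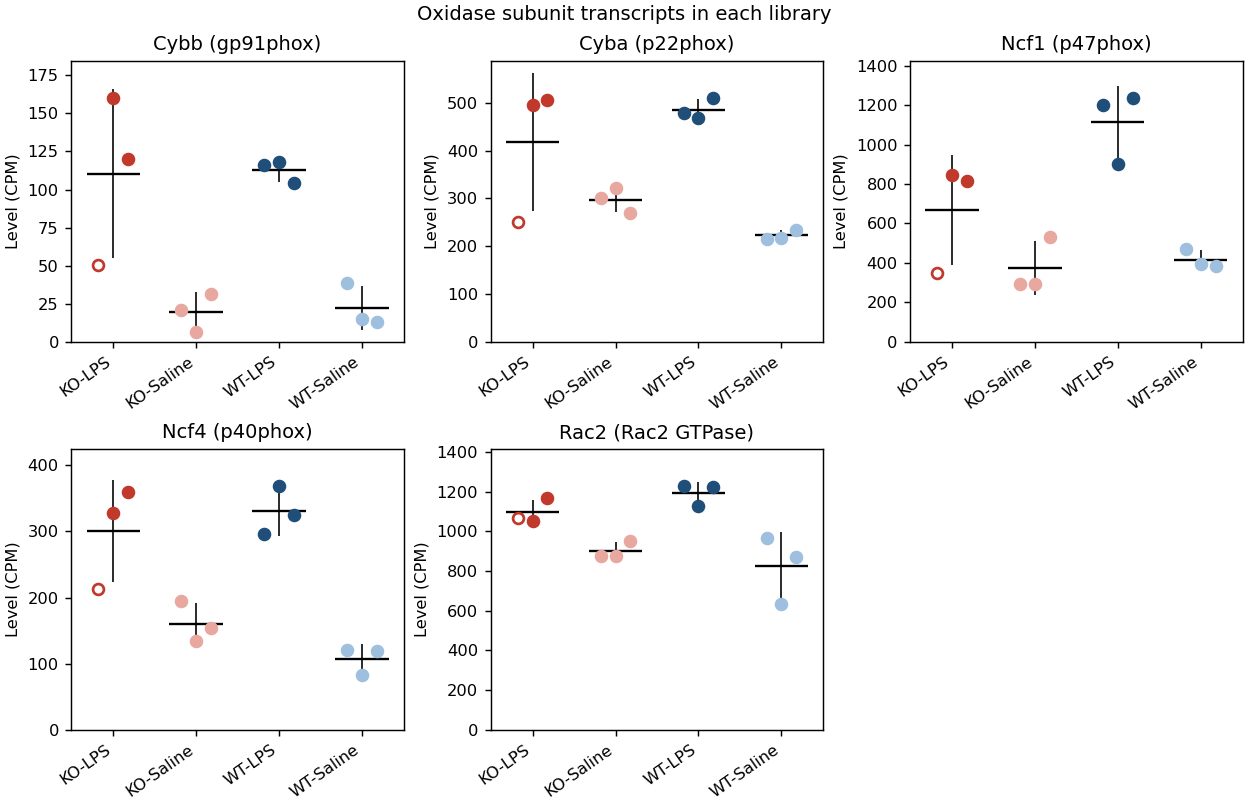
Levels in CPM (vertical axis from 0) of the 5 subunit genes in each of the 12 libraries. Points are libraries, horizontal bars group means, vertical lines 1 SD (n = 3), and the open circle is KO-LPS replicate 1. For Cybb, Cyba, Ncf1, Ncf4 and Rac2 all WT-LPS points lie above all WT-Saline points.

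Cybb (Gene ID 13058, chromosome X, 9435252 to 9487771 in mm10, minus strand) encodes gp91phox, the subunit that binds NADPH and passes the electrons on. It had 50.7, 160.4 and 120.1 CPM in KO-LPS replicates 1 to 3 and 21, 6.51 and 31.6 CPM in KO-Saline. In WT-LPS it had 116, 118 and 104 CPM, against 38.7, 14.8 and 13.0 CPM in WT-Saline. Every LPS library was above every saline library of either genotype. These levels rest on few reads, with 140 in the 3 KO-LPS libraries together and 24 in KO-Saline, and with 161 in WT-LPS and 30 in WT-Saline. Pooled, the 95% Poisson intervals were 94.5 to 133 CPM in KO-LPS and 12.3 to 28.5 CPM in KO-Saline, and 95.6 to 131 CPM in WT-LPS and 14.2 to 30.1 CPM in WT-Saline. Cybb rose in WT-LPS by 2.46 ± 0.54 on the log2 scale (SE; adjusted p = 0.00262), a fold of 5.5 and the largest fold of the 5 genes. It also rose in KO-LPS against KO-Saline, by 2.51 ± 0.54 (adjusted p = 0.00849), and by 2.98 ± 0.56 without KO-LPS replicate 1 (adjusted p = 0.000157). This KO-labelled call was lost without KO-LPS replicate 2 or 3 or KO-Saline replicate 2 (adjusted p = 0.121, 0.0795 and 0.0718), without the trend (0.143) and with only the groups compared in the fit (0.0508).

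Cyba (13057, chromosome 8, 122424776 to 122432930, minus strand) encodes p22phox, which stabilises gp91phox and docks p47phox. It had 251, 496 and 506 CPM in KO-LPS and 302, 321 and 270.0 CPM in KO-Saline. Its levels were 479, 468 and 511 CPM in WT-LPS and 215, 218 and 235 CPM in WT-Saline. The WT groups were far apart, while KO-LPS replicate 1 lay below all KO-Saline libraries. Cyba rose in WT-LPS by 1.12 ± 0.25 (adjusted p = 0.00263), a fold of 2.18. In the KO-labelled libraries the log2 fold change was 0.42 ± 0.25 (adjusted p = 0.408), and without KO-LPS replicate 1 Cyba rose by 0.75 ± 0.22 (adjusted p = 0.0172).

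Ncf1 (17969, chromosome 5, 134220053 to 134229625, minus strand) encodes p47phox, the organizer whose phosphorylation brings the cytosolic subunits to the membrane. It had 347, 844 and 815 CPM in KO-LPS and 291, 293 and 530.2 CPM in KO-Saline. The levels were 1202, 903 and 1238 CPM in WT-LPS and 472, 393 and 384 CPM in WT-Saline. All WT-LPS libraries were above every library of the other 3 groups, and KO-LPS replicate 1 lay among the KO-Saline libraries. Ncf1 rose in WT-LPS by 1.41 ± 0.28 (adjusted p = 0.000928), a fold of 2.66. The KO-labelled log2 fold change was 0.80 ± 0.28 (adjusted p = 0.123), and without KO-LPS replicate 1 Ncf1 rose by 1.22 ± 0.23 (adjusted p = 0.000152). Exons of Ncf1 overlap those of Gtf2ird2 on the opposite strand by 408 bases, so the reads of these genes may be mixed. Gtf2ird2, with a mean of 422 reads per library against 292 for Ncf1, had a WT log2 fold change of 0.67 ± 0.28 (adjusted p = 0.124) and a KO-labelled one of 0.02 ± 0.28 (adjusted p = 0.987).

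Ncf4 (17972, chromosome 15, 78244801 to 78262580, plus strand) encodes p40phox, which binds a phosphoinositide of the phagosome membrane. It had 213, 328 and 360.2 CPM in KO-LPS and 194, 135 and 153 CPM in KO-Saline. Its levels in WT-LPS were 296, 369 and 325 CPM, against 121, 82.4 and 119 CPM in WT-Saline. No LPS group overlapped a saline group, although KO-LPS replicate 1 exceeded the highest KO-Saline library only narrowly. Ncf4 had the smallest adjusted p of the 5 genes in WT, where it rose by 1.62 ± 0.27 (adjusted p = 0.000128), a fold of 3.08. In KO-labelled libraries the log2 fold change was 0.88 ± 0.27 (adjusted p = 0.0722), and without KO-LPS replicate 1 Ncf4 rose by 1.11 ± 0.27 (adjusted p = 0.00353).

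Rac2 (19354, chromosome 15, 78559167 to 78572783, minus strand) encodes the haematopoietic Rac GTPase, which joins the enzyme in its GTP form. Its gene lies 296.6 kb beyond the end of Ncf4. Rac2 had 1067.1, 1053.5 and 1168.5 CPM in KO-LPS and 874.0, 876.5 and 953.4 CPM in KO-Saline. It had 1230.2, 1126.2 and 1222.8 CPM in WT-LPS and 968.2, 634.1 and 869.8 CPM in WT-Saline. The LPS libraries were again all above the saline libraries, by the smallest fold of the 5 genes. The WT log2 fold change of 0.56 ± 0.20 missed the threshold (adjusted p = 0.0712, 95% interval 0.15 to 0.96). It passed without KO-LPS replicate 1 (adjusted p = 0.018), a fit in which all 5 genes and 8.54% of all genes were called higher in WT-LPS. The WT estimate stayed at 0.56 in that fit, and its SE went from 0.20 to 0.17, because the groups share the estimate of the spread. The KO-labelled log2 fold change was 0.28 ± 0.20 (adjusted p = 0.506; 95% interval -0.13 to 0.69), or 0.30 ± 0.19 without that replicate (adjusted p = 0.341). Reads shared with the close paralog Rac1 could add to either gene.

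In the KO-labelled libraries as a whole, 1 of the 5 genes, Cybb, was called higher with LPS and none lower, where 1.99% of all genes were called higher and 1.35% lower. Centring the libraries on their medians changed the split of all KO-labelled calls to 147 higher and 161 lower, against 187 higher and 127 lower in the deposited scaling, and it left 1 subunit gene called. Without KO-LPS replicate 1, limma called 4 of the 5 genes higher, where 5.97% of all genes were called higher. The groups did not overlap for 3 genes, Cybb, Ncf4 and Rac2, with the LPS libraries higher, a pattern of 10.8% of all genes. The median log2 fold change of the 5 genes was 0.80, and 1.11 without that replicate, while the medians of all genes were 0.09 and 0.15.

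**Figure D2:**
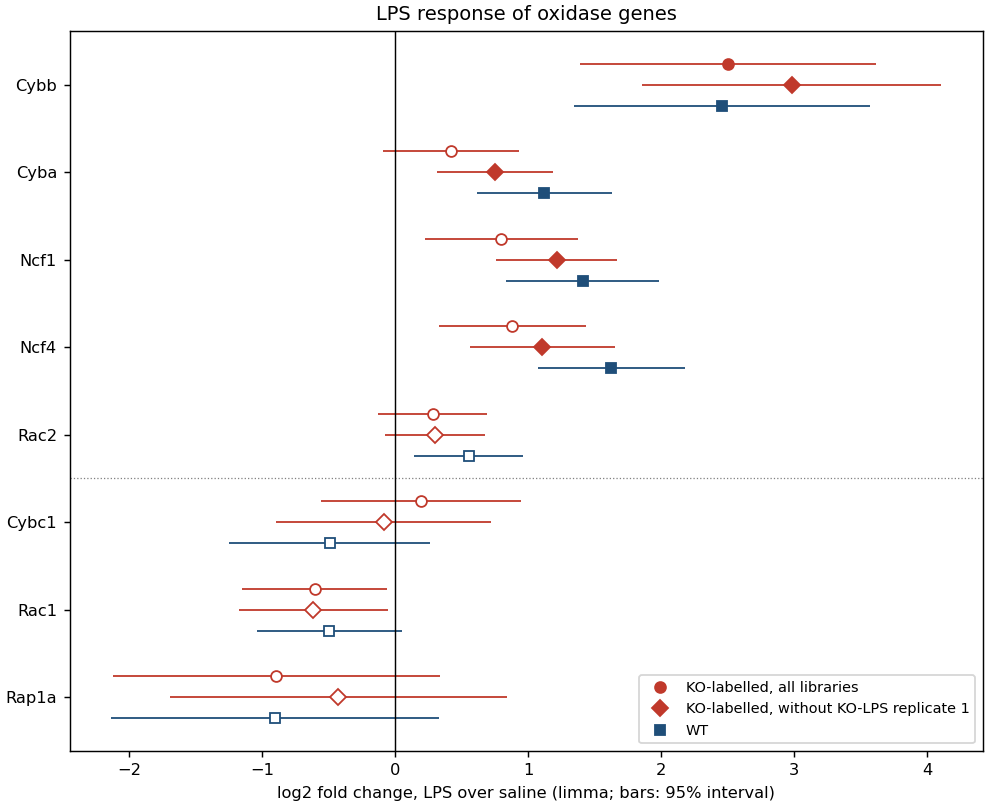
Log2 fold changes, LPS over saline, of the 5 subunit genes (above the dotted line) and 3 partner genes, with 95% intervals as bars. Red circles are KO-labelled libraries, red diamonds the same without KO-LPS replicate 1, and blue squares WT libraries; filled symbols passed an adjusted p of 0.05. Cybb has the largest fold changes, 2.51, 2.98 and 2.46, and Rac2 the smallest of the 5.

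The genotypes were then compared within each treatment. No subunit gene passed between KO-LPS and WT-LPS, where limma called 0% of all genes (471 genes, and 1 of the 5, had an unadjusted p under 0.05). That 1 gene was Ncf1, at 668 ± 279 CPM in KO-LPS and 1114 ± 184 CPM in WT-LPS (SD, n = 3 each). Its groups did not overlap, with KO-LPS lower, as for 5.33% of all genes. The Ncf1 log2 difference was -0.83 ± 0.28 (adjusted p = 0.857; 95% interval -1.41 to -0.25), and without KO-LPS replicate 1 it was -0.41 ± 0.23 (adjusted p = 0.997). The other 4 log2 differences lay between -0.29 for Cyba and -0.12 for Rac2, and those of Cybb, Cyba and Ncf4 were above 0 without that replicate (0.30, 0.05 and 0.06). The 95% interval for Cybb ran from -1.29 to 0.94, which includes sizeable differences in either direction, and the KO-LPS libraries had 19, 65 and 56 Cybb reads.

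In saline, again no subunit gene passed, where 0.0107% of all genes, a single gene, was called lower in KO-Saline than in WT-Saline and none higher (643 genes, and 1 of the 5, had an unadjusted p under 0.05). Ncf4 was that 1 of the 5, at 161 ± 30.5 CPM in KO-Saline and 108 ± 21.8 CPM in WT-Saline (SD, n = 3 each). Its log2 difference was 0.58 ± 0.27 (adjusted p = 0.7). Cyba averaged 298 ± 25.8 CPM in KO-Saline and 223 ± 10.51 CPM in WT-Saline, a log2 difference of 0.42 ± 0.25 (adjusted p = 0.8). For both genes every KO-Saline library was above every WT-Saline library, as for 6.77% of all genes. The log2 differences of Cybb (-0.22 ± 0.54), Ncf1 (-0.22 ± 0.28) and Rac2 (0.15 ± 0.20) came with overlapping groups.

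The interaction, meaning the KO-labelled LPS response less the WT one, passed for none of the 5 genes and for 0% of all genes (0 of the 5, and 560 of all genes, had an unadjusted p under 0.05). The smallest unadjusted p-values belonged to Cyba (-0.70 ± 0.35, adjusted p = 0.846) and Ncf4 (-0.74 ± 0.38, adjusted p = 0.857). Those of Ncf1 (-0.61 ± 0.40), Rac2 (-0.27 ± 0.28) and Cybb (0.05 ± 0.77) were further from the threshold. The 95% interval for Cyba ran from -1.42 to 0.02 and that for Cybb from -1.53 to 1.62. A call in WT and not in KO-labelled libraries is therefore no shown difference between the genotypes. Without KO-LPS replicate 1 the interactions were -0.37 for Cyba, -0.52 for Ncf4, -0.20 for Ncf1, -0.25 for Rac2 and 0.52 for Cybb (adjusted p = 0.893, 0.87, 0.963, 0.92 and 0.955).

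By mean level over all libraries, WT-LPS ranked first and KO-LPS second for each of the 5 genes, and these neighbours overlapped for all but Ncf1. That uniform order depended on KO-LPS replicate 1. Without that replicate the mean log2 value was higher in KO-LPS than in WT-LPS for Cybb, Cyba and Ncf4 (by 0.30, 0.05 and 0.06). The ranking of the saline groups varied. KO-Saline was above WT-Saline for Cyba, Ncf4 and Rac2, with an overlap for Rac2 alone, and below it for Cybb and Ncf1, with an overlap in both. Per kilobase of annotated exon, the mean levels in WT-LPS were 467.8 CPM per kb for Cyba, 384 for Rac2, 304 for Ncf1, 163 for Ncf4 and 19.4 for Cybb. The same order held in KO-LPS, from 402 CPM per kb for Cyba to 19.0 for Cybb. In WT-Saline Rac2 was the highest at 266 CPM per kb, against 214 for Cyba, 114 for Ncf1, 53.3 for Ncf4 and 3.82 for Cybb. By mean reads, Rac2 ranked 127 among the 9374 genes, Ncf1 240, Cyba 533, Ncf4 901 and Cybb 2687. These kilobase values use the union of all annotated exons, which for Cybb spans 5808 bases.

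Of 10 further subunits and relatives listed, 4 were in the table (Cybc1, Rac1, Rap1a and Nox1), and none of the 4 was called with LPS in either genotype. Rac1, the widely expressed paralog of Rac2, averaged 162 ± 21.6 CPM in KO-LPS and 248 ± 47.8 in KO-Saline, and 161 ± 28.7 in WT-LPS and 229 ± 48.9 in WT-Saline (SD, n = 3 each). Its exons overlap those of Daglb on the opposite strand by 2309 bases. Cybc1, which encodes a chaperone of the membrane core, averaged 82.6 ± 30.4 CPM in KO-LPS and 70.5 ± 16.5 in KO-Saline, and 53.2 ± 5.44 in WT-LPS and 75.2 ± 8.09 in WT-Saline. Its exons overlap those of Hexdc by 68 bases. Rap1a, a GTPase that associates with the core, was at 18.5 ± 9.99 CPM in KO-LPS and 31.95 ± 2.52 in KO-Saline, and at 19.0 ± 4.17 in WT-LPS and 37.7 ± 15.6 in WT-Saline. Nox1, a catalytic paralog of gp91phox known from colon epithelium, had 1, 2 and 4 reads in KO-LPS and 1, 0 and 0 in KO-Saline, and 11, 7 and 14 in WT-LPS and 0, 3 and 6 in WT-Saline. These are 5.39 ± 2.98 CPM in KO-LPS and 0.875 ± 1.52 in KO-Saline, where the mean reads of both groups were under 3, and 22.3 ± 6.51 in WT-LPS and 5.84 ± 5.60 in WT-Saline. The WT-LPS libraries were all above the WT-Saline libraries, with a log2 fold change of 2.25 ± 1.05 (adjusted p = 0.182). Nox1 exons overlap those of Cstf2 on the opposite strand by 399 bases.

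Unequal movement within 2 pairs of partner genes was tested directly as log2 ratios of their levels within each library, per kilobase, with an exact two-sided permutation test that exchanged LPS and saline labels within genotype. In both ratios the first gene gained on its partner with LPS, averaged over genotypes. With 400 permutations the smallest possible p was 0.005, and p-values were adjusted over the 2 ratios. Both ratio tests were added after the values were seen, and this adjustment does not cover that choice. The log2 ratio of Cybb over Cyba averaged -4.49 in KO-LPS and -6.67 in KO-Saline, and -4.59 in WT-LPS and -5.99 in WT-Saline. In KO-Saline the ratios were -6.33, -8.11 and -5.58, and replicate 2, the lowest, had 3 Cybb reads, which is the detection limit. The averaged difference was 1.79 (exact permutation p = 0.005, adjusted 0.005). The transcript of the catalytic subunit thus stayed far below that of p22phox in every library, but by less after LPS. Rac2 over Rac1 averaged 3.31 in KO-LPS and 2.42 in KO-Saline, and 3.44 in WT-LPS and 2.38 in WT-Saline. Their averaged difference was 0.97 (exact permutation p = 0.005, adjusted 0.005). Of the 4496 exon bases of Rac1, 2309 overlap the opposite-strand gene Daglb, so Rac1 reads may be mixed with those of Daglb. Without KO-LPS replicate 1 the exact permutation p was 0.015 for Cybb over Cyba and 0.005 for Rac2 over Rac1.

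**Figure D3:**
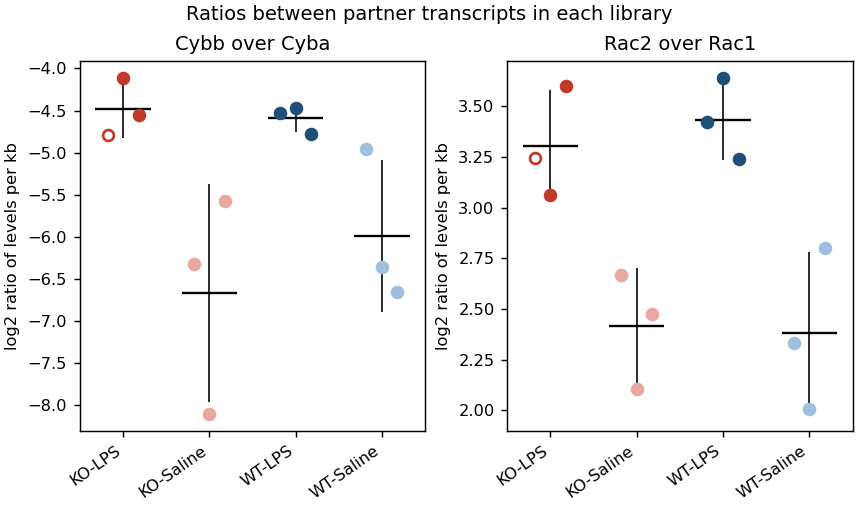
Log2 ratios of levels per kilobase for 2 pairs of partner genes in each of the 12 libraries, with group means as bars and 1 SD as lines (n = 3); vertical axes do not start at 0. The open circle is KO-LPS replicate 1. In each panel the LPS points lie above the saline points of the same genotype.

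Genes around the enzyme were followed in 5 lists. Their counts are to be read against the shares of all genes called higher and lower, 1.99% and 1.35% in KO-labelled and 6.72% and 4.96% in WT libraries, and without KO-LPS replicate 1, 5.97% and 5.5% in KO-labelled and 8.54% and 6.68% in WT libraries. A count of 1 in lists of this size is no result about the list. Among 17 Rac regulators in the table (of 20 listed), 2 fell in WT-LPS and none rose. They were Bcr (-1.97 ± 0.50, adjusted p = 0.00849) and Arhgap15 (-1.28 ± 0.42, adjusted p = 0.0444), both GTPase-activating proteins that switch Rac off. Arhgap15 exons overlap the antisense Arhgap15os by 73 bases. In KO-LPS 1 of the 17 rose, the exchange factor gene Tiam2 (2.34 ± 0.67, adjusted p = 0.0499), whose exons overlap Tfb1m. Tiam2 rests on few reads, with 13, 18 and 12 in KO-LPS and 1, 6 and 2 in KO-Saline. Without KO-LPS replicate 1 it was 2 up, Vav3 (adjusted p = 0.0162) and Tiam2 (adjusted p = 0.0447), and 1 down, Bcr (adjusted p = 0.0365), with 3 down in WT. The list's median log2 fold change was -0.02 in KO-labelled libraries (0.06 without KO-LPS replicate 1) and 0.02 in WT libraries. Of 17 activating kinases and lipid enzymes (of 18 listed), none passed in either genotype, and the medians were -0.21 in KO-labelled libraries (-0.41 without KO-LPS replicate 1) and -0.01 in WT libraries. Without KO-LPS replicate 1 the kinase gene Syk fell in both genotypes, by 0.81 on the log2 scale in KO-LPS (adjusted p = 0.00568) and by 0.52 in WT-LPS (adjusted p = 0.0456).

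Of 9 genes for NADPH supply and charge compensation (of 10 listed), 2 rose in WT-LPS and none fell. G6pdx, which encodes the first enzyme of the pentose phosphate pathway, averaged 323 ± 107 CPM in KO-LPS and 173 ± 73.4 in KO-Saline, and 295 ± 69.2 in WT-LPS and 134 ± 18.2 in WT-Saline (SD, n = 3 each). It rose in WT by 1.12 ± 0.31 (adjusted p = 0.0138), and its exons overlap Ikbkg. Nadk, whose product phosphorylates NAD to NADP, rose in WT by 0.68 ± 0.21 (adjusted p = 0.0349). None of the 9 passed in KO-labelled libraries, where without KO-LPS replicate 1 G6pdx rose by 1.23 (adjusted p = 0.00256). The same fit called 2 of the 9 lower in both genotypes. The voltage-gated proton channel gene Hvcn1, whose exons overlap Tctn1, fell by 1.08 in KO-LPS (adjusted p = 0.000656) and by 0.66 in WT-LPS (adjusted p = 0.0188). The pentose pathway gene Taldo1 fell by 0.97 in KO-LPS (adjusted p = 0.00131) and by 0.64 in WT-LPS (adjusted p = 0.0172). Of 17 oxidant handling genes (of 20 listed), 1 rose in WT-LPS, Gpx1, a glutathione peroxidase (0.93 ± 0.22, adjusted p = 0.00481), and none passed in KO-labelled libraries; without KO-LPS replicate 1 it was 2 in WT and none in KO-labelled libraries. Of 11 transcription factor genes tied to oxidase genes (of 14 listed), 1 fell in both genotypes, Cebpd, by 1.09 in KO-LPS (adjusted p = 0.0265) and by 1.11 in WT-LPS (adjusted p = 0.00793). Cebpd exons overlap Spidr on the opposite strand. The medians of these last 3 lists were 0.26, 0.20 and 0.06 in KO-labelled libraries (0.60, 0.33 and 0.03 without KO-LPS replicate 1) and 0.33, 0.32 and 0.17 in WT libraries.

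**Figure D4:**
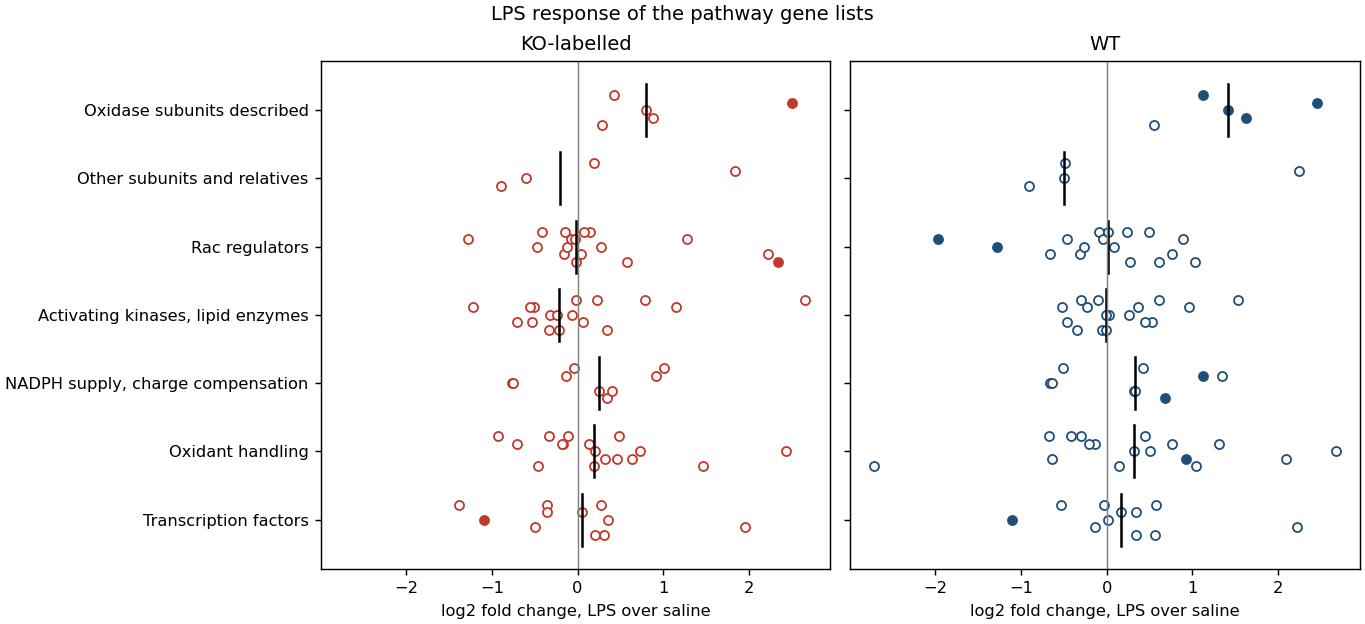
Log2 fold changes, LPS over saline, of each gene in the 5 subunit genes and 6 pathway lists, for KO-labelled (left) and WT libraries (right). Circles are genes, filled where the adjusted p was under 0.05, and vertical bars are list medians. The 5 subunit genes have medians of 0.80 and 1.41, the other subunits and relatives -0.20 and -0.49.

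Cell markers moved along with LPS. The 12 specific granule and immature neutrophil genes summed to between 3121 CPM, in KO-LPS replicate 1, and 17406 CPM in KO-LPS, and to 2262 to 3236 CPM in KO-Saline. They summed to 13065 to 17522 CPM in WT-LPS and 1501 to 1861 CPM in WT-Saline, and 6 of the 12 rose in KO-labelled libraries (8 without KO-LPS replicate 1) and 11 in WT. Their part in the subunit results was not tested. Ly6g is in both that list and the list of mature neutrophil markers, and it counts among the WT risers of both. The 14 mature neutrophil markers summed to 20905 to 23631 CPM in KO-LPS, 20575 to 20887 CPM in KO-Saline, 19129 to 21874 CPM in WT-LPS and 15420.1 to 20462 CPM in WT-Saline. These sums hide changes both ways: 2 rose and 2 fell in KO-labelled libraries (4 and 3 without KO-LPS replicate 1), and 6 rose and 3 fell in WT, the last being Csf3r, Cxcr4 and Clec4d (-1.62, -2.33 and -1.11 on the log2 scale). Monocytes and macrophages also express the oxidase. Of 11 markers of these cells, 6 were in the table, and they summed to 432 to 656 CPM in KO-LPS, 441 to 494 CPM in KO-Saline, 602 to 697 CPM in WT-LPS and 423 to 545 CPM in WT-Saline. Among them 1 fell in KO-labelled libraries (1 rose and 2 fell without KO-LPS replicate 1), Ly6c2 rose in WT while Apoe and Csf1r fell, and Fcgr1 was at 0 reads in all saline libraries of both genotypes. Their part in the subunit results was not tested. The B cell marker Cd79a, the only one in the table of 6 listed, was at 34.7 to 104 CPM in KO-LPS and 7.3 to 28.9 CPM in KO-Saline, and at 101 to 134 CPM in WT-LPS and 9.7 to 29.6 CPM in WT-Saline, and its part was likewise not tested. The platelet markers in the table, 3 of 7 listed, summed to 217 to 496 CPM in KO-LPS and 651 to 837 CPM in KO-Saline, and to 161 to 255 CPM in WT-LPS and 523 to 779 CPM in WT-Saline. In KO-labelled libraries 1 fell (2 without KO-LPS replicate 1), and all 3 fell in WT. The T and NK cell markers in the table (3 of 9 listed) summed to 69.1 to 136 CPM in KO-LPS, 91.1 to 176 CPM in KO-Saline, 90.7 to 216 CPM in WT-LPS and 119 to 173 CPM in WT-Saline; none passed in KO-labelled libraries and 1 fell in WT. The dendritic cell markers in the table (3 of 5 listed) summed to 14.8 to 85.4 CPM in KO-LPS, 41.3 to 93.3 CPM in KO-Saline, 16.7 to 33.2 CPM in WT-LPS and 75.0 to 177 CPM in WT-Saline, and Clec9a fell in WT, and in KO-labelled libraries without KO-LPS replicate 1. The single eosinophil and erythroid markers, Siglecf and Alas2, reached at most 23.6 and 37.9 CPM in any library. The part of these markers in the subunit results was not tested.

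The genes whose patterns were most like those of the subunits were found by the root mean square difference of log2 values, each gene centred on its own mean, over the 12 libraries and among 4381 genes of at least median level, passing over predicted genes and pseudogenes. For Cybb the 3 nearest were Trak2 (0.42), Myo1g (0.47) and Upp1 (0.51). For Cyba they were Nin (0.14), Ehd1 (0.14) and B3gnt9 (0.17), for Ncf1 Dbp (0.25), Macf1 (0.26) and Stip1 (0.27), for Ncf4 Sqor (0.19), Gpi1 (0.22) and Il4ra (0.22), and for Rac2 Samhd1 (0.13), Cfl1 (0.13) and Fmnl1 (0.14). Exons of Nin, B3gnt9, Dbp, Gpi1, Il4ra, Cfl1 and Fmnl1 overlap a gene on the opposite strand. No subunit gene was among another's 3 nearest. Between subunits, Cyba and Ncf4 were closest (0.33), followed by Cyba and Rac2 (0.34) and Cyba and Ncf1 (0.44). Cybb differed from the other 4 by 0.86 to 1.21. The measure is not scaled for a gene's spread or for counting error, and Cybb had only 3 to 65 reads per library. The part of spread and counting error in these distances was not tested.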

How the data were processed

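Per the labels' protocols, RNA extraction used the Qiagen miRNeasy micro kit and library construction a Tecan Universal Plus Total RNA kit. The genome build was mm10, per the submitters' processing notes. Aligner, counter, annotation, strand setting and gene filter: not given in the sources used here. The deposited values are log2 CPM with 0.5 added to the reads, since undoing this form gave whole numbers of reads (tolerance 0.0001) for 100.0% of values in each library. Symbols were found for 9372 of the 9374 IDs.

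The deposited log2 values were tested with limma 3.58.1 (R 4.3.3): a model of 4 group means over 12 libraries, moderated with a mean-variance trend, two-sided, Benjamini-Hochberg adjusted over all genes and called under 0.05. Fold changes are on this log2 scale, which understates changes of low genes. CPM came from the recovered reads, and ± after CPM is the SD, after log2 values the SE. Ratios and figures used Python 3.11.15, pandas 2.3.3, SciPy 1.17.1 and matplotlib 3.10.9. The limma fit was tested on simulated reads. Gene models are GENCODE M21. All subunit genes were named, with at most 3 called genes per list and comparison. A further gene of the enzyme is not reported here. The ratio tests, and the fold changes of Gtf2ird2, were added after their values were seen. The members and lists were chosen with earlier results of these data known. Alternatives covered moderation, scaling, gene filter, added reads, precision weights, the samples in the fit, a replicate block and leaving out each library.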

Additional observations from a re-analysis of the deposited data

How the results depend on the processing

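Of the subunit genes, 4 were called with LPS in WT and 1 in KO-labelled libraries. Without the mean-variance trend these counts were 1 and 0, and with only the groups compared in the fit the KO-labelled count was 0; the cause was not tested. Leaving out each library in turn gave 4 to 5 in WT, 0 to 4 in KO-labelled libraries, and 0 to 0 between genotypes within LPS, within saline and for the interaction. The KO-labelled count was 4 without KO-LPS replicate 1 and 0 without each of KO-LPS replicates 2 and 3 and KO-Saline replicate 2. Rac2 in WT passed under 5 alternatives, among them precision weights (0.0289). No called value reversed.

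Over all genes, limma called 1095 with LPS in WT (363 without the trend) and 314 in KO-labelled libraries (16 without the trend, 82 with only the groups compared, 32 to 1076 leaving out each library). Between genotypes in saline it called 1, against 22 with only the groups compared and 0 to 31 leaving out each library. Within LPS, 0 genes became 1 with precision weights, and the interaction 2. Libraries with the same replicate number showed no sign of pairing (correlation of deviations -0.07 to 0.04 over 18 pairs). For different numbers it was -0.06 to 0.05 over 36 pairs. Counting error in such shallow libraries could hide a pairing, so none is excluded. With a replicate block the members called stayed at 4 and 1, with 1086 and 336 of all genes. The 2 ratio differences kept their direction when each library was left out (highest exact permutation p 0.015, Cybb over Cyba). In both ratios the LPS and saline libraries did not overlap within either genotype. Leaving out 1 library therefore could not change the direction, and the observed split stayed the most extreme in its direction. That check adds no support to the ratios. Cybb, with 30 reads in WT-Saline, rests on few reads.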
